A study of Mus musculus with 4 samples.

Results

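Chemokines are small secreted proteins that guide migrating cells, and those of the CXC family are read by a family of receptors in the cell membrane. The arrays were examined here for the genes of 5 such receptors, Cxcr2, Cxcr3, Cxcr4, Cxcr5 and Cxcr6, chosen by name, out of 18539 genes that could be named on the arrays. They were found through the RefSeq accession of each probe, which gave 7 probes: 2 each for Cxcr2 and Cxcr4, and 1 each for the other 3 genes.

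CXC receptors span the membrane and signal through inhibitory G proteins, after which kinases and arrestins switch the receptor off and take it into the cell. Cxcr2 reads the Cxcl1, Cxcl2, Cxcl3 and Cxcl5 group and is best known from neutrophils. Cxcr3 reads Cxcl9, Cxcl10 and Cxcl11 and is known from Th1 and CD8 T cells, Cxcr4 reads Cxcl12 and is found on most leukocytes, Cxcr5 reads Cxcl13 and brings B cells and follicular helper T cells into follicles, and Cxcr6 reads Cxcl16 and is known from activated and tissue-resident T cells.

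The study asked how SH-2251, which it describes as a thioamide-related compound made to inhibit IL-5 production, changes Th2 cells, the CD4 T cells that make IL-4, IL-5 and IL-13. There were 4 conditions with 1 array each: control resting, SH-2251 resting, control restimulated and SH-2251 restimulated. By the labels, all cells were CD4 T cells from the spleens of female C57BL/6J mice, sorted with magnetic beads, with no age or genotype change given. All were activated for 2 days on plate-bound anti-TCR-β (3 µg/ml) with anti-CD28 (1 µg/ml) in medium holding IL-4 at 10 ng/ml and IL-2 at 2.5 ng/ml, moved to a new plate, and kept for 3 more days in both cytokines. SH-2251 was present throughout or left out, and the restimulated cells were put back on anti-TCR-β for 4 h before RNA was taken. The labels give SH-2251 at 1 µM in the first phase and 1 mM in the second, whereas the methods of the study name a lower usual dose and naïve CD4 T cells as the start, so the dose on the arrays and the starting cells are uncertain. Those methods also list an anti-IFN-γ antibody among the Th2 conditions.

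Each level below is the log2 of the background-corrected intensity of a probe minus the 75th percentile of its array, which was 561, 614, 499 and 583 intensity units in the order of conditions above. Of all probes, 56.0% to 56.7% rose well above background on an array, and all arrays lay on 1 slide and were read in 1 scan. With 1 array per condition there was no replicate and no test was possible, so that the precision is limited by how few arrays there are. The technical SD given with each difference was computed from the error that the scanner software assigns to a spot, and leaves out all error between cultures. A change was called when it reached 2-fold, and levels were compared between conditions within a probe, never between probes. The summed signal given for a list of marker genes is carried by its brightest probes and is set side by side between conditions only. Cells carried the T cell genes Cd3d, Cd3e, Cd3g, Cd4 and Cd28 well above background on all 4 arrays, and the Th2 genes Gata3, Il4, Il5 and Il13 likewise.

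The stretches around the transcription start are shown for the 4 receptor genes that had a RefSeq promoter at hand. None was available for Cxcr5. Of those shown, Cxcr2, Cxcr3 and Cxcr4 were lower with SH-2251 in either state whereas Cxcr6 turned direction. Gfi1, a repressor that binds AATC, was itself far lower with SH-2251. Each line gives 250 bases before and 50 after the RefSeq start in GRCm38.p6, read 5′ to 3′ on the gene's own strand. Capitals mark the core read by GATA factors (GATA, or TATC on the other strand) and the core read by Gfi1 (AATC, or GATT on the other strand).
Cxcr2, chr1:74153744-74154043, plus strand: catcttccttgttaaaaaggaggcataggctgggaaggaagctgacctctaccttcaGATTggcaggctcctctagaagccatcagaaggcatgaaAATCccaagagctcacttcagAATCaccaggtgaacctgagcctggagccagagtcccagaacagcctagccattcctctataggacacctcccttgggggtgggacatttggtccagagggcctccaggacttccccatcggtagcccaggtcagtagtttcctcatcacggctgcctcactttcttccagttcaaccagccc
Cxcr3, chrX:101734098-101734397, minus strand: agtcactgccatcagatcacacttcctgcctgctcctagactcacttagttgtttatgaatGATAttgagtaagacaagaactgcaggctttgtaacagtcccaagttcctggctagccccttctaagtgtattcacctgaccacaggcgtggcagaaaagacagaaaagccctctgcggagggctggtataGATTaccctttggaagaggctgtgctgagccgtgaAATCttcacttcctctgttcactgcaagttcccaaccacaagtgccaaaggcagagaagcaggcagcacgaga
Cxcr4, chr1:128592250-128592549, minus strand: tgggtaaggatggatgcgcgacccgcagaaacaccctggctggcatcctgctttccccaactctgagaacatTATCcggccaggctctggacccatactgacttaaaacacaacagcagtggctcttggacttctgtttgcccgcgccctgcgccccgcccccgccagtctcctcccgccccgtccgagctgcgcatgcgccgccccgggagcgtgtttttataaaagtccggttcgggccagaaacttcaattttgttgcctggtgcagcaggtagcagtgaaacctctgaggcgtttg
Cxcr6, chr9:123806227-123806526, plus strand: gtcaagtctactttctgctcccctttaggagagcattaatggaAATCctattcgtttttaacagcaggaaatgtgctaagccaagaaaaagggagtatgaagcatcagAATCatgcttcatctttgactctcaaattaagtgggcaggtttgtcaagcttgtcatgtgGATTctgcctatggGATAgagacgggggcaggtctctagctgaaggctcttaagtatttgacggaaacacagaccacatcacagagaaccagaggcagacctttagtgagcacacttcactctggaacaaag

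AATC was found 3 times in the Cxcr2 and Cxcr6 stretches, 2 times in that of Cxcr3 and 0 times in that of Cxcr4, on either strand. Of 32851 RefSeq promoters of the same length, 73.1% held it at least 1 time. GATA was found 1 time in the Cxcr3, Cxcr4 and Cxcr6 stretches and 0 times in that of Cxcr2, against 57.9% of all promoters with a match. The core GGAAA, read by NFAT, which T cell receptor signals bring into the nucleus, occurred 3 times at Cxcr6, 1 time each at Cxcr2 and Cxcr4 and 0 times at Cxcr3, with a match in 61.3% of all promoters. None of the 4 held TGANTCA, the AP-1 site, which 7.81% of promoters held, and CACCC, a box read by Klf factors, was found 1 time at Cxcr2 and at Cxcr4 and 0 times at Cxcr3 and Cxcr6 (57.5% of promoters). No core overlapped another in the capitals shown. These are matches of letters only. The G and C content was 54.0% at Cxcr2, 49.3% at Cxcr3, 59.3% at Cxcr4 and 44.3% at Cxcr6, against a median of 52.7%.

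In resting cells all 5 receptor genes were lower with SH-2251, by 0.71 to 1.71 on the log2 scale, and Cxcr2 and Cxcr6 reached 2-fold. Of all 12683 genes compared there, 2.9% were lower and 2.22% higher by 2-fold or more. The median over the 5 receptors was -0.85, where that over all genes was -0.055. In restimulated cells Cxcr2, Cxcr3 and Cxcr4 were again lower, Cxcr5 differed by less than its technical SD, and Cxcr6 was 2.29-fold higher. Cxcr3 was the 1 receptor at least 2-fold lower and Cxcr6 the 1 at least 2-fold higher, against 2.78% and 2.65% of 12622 genes. The median over the receptors in this state was -0.81, and that over all genes -0.063. Of the 5 receptors, 4 were below 0 in both states, as were 46.3% of the 11518 genes measured on all 4 arrays. In bulk RNA, fewer cells with a transcript and less of it per cell cannot be told apart.

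**Figure D1:**
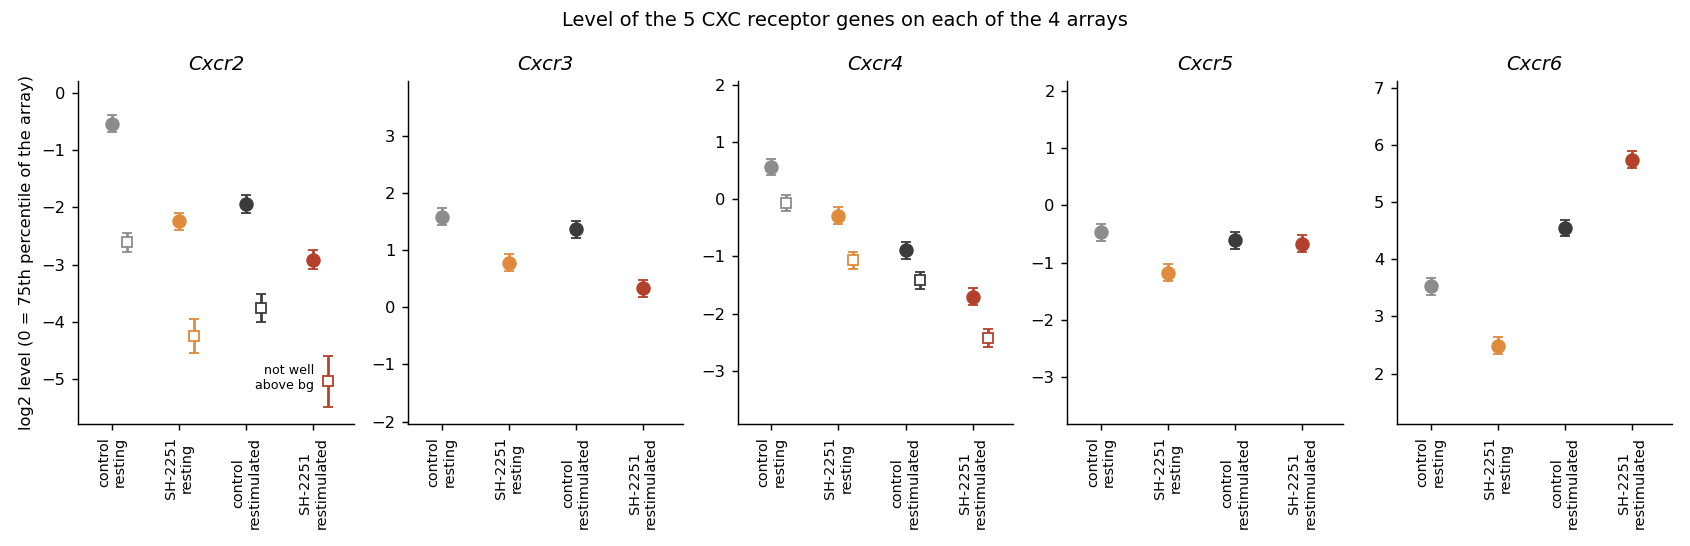
The log2 level of each receptor gene (0 is the 75th percentile of the array) in the 4 conditions, 1 array each, with bars for the technical SD. Filled circles are the probe used and open squares the second probe of Cxcr2 and Cxcr4; every panel spans the same number of log2 units but has its own range, since levels of different probes are not comparable. Cxcr2, Cxcr3 and Cxcr4 have their lowest point in SH-2251 restimulated cells, where Cxcr6 has its highest.

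Restimulation itself moved the receptors unequally. In control cells Cxcr2 and Cxcr4 were at least 2-fold lower after 4 h on anti-TCR-β and Cxcr6 at least 2-fold higher, against 7.34% of 12757 genes lower and 7.2% higher. The Cxcr6 value of 1.02 fell short of 2-fold under median scaling (0.99) and quantile normalization (0.92). In SH-2251 cells Cxcr4 was the 1 receptor at least 2-fold lower and Cxcr6 the 1 at least 2-fold higher, against 6.98% and 7.09% of 12613 genes. The comparisons by state and by treatment share arrays, so each is given with its own values only. The medians over the 5 receptors were -0.22 in control and -0.45 in SH-2251 cells, where those over all genes were -0.064 and -0.051.

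**Figure D2:**
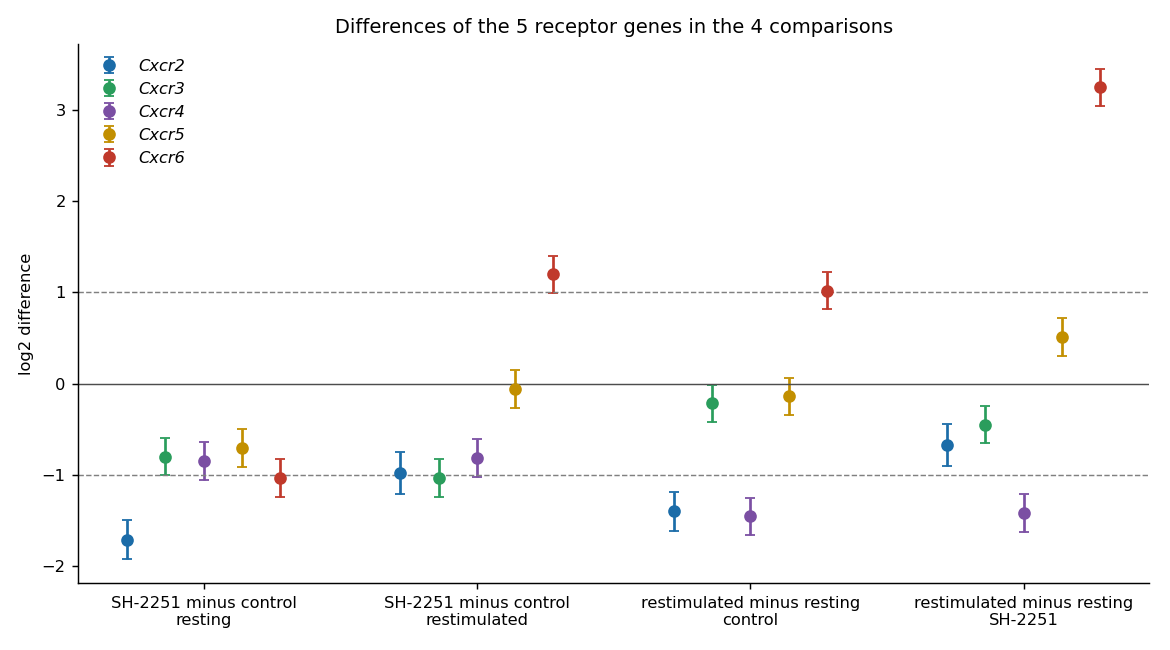
The log2 difference of each receptor gene in the 4 comparisons, with bars for the technical SD; the dashed lines mark 2-fold. In resting cells all 5 points lie below 0, and Cxcr6 alone lies above the upper line in the other 3 comparisons.

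Cxcr2 was the receptor gene furthest below 0 with SH-2251 in resting cells. Its brighter probe (NM_009909) read -0.54 in control resting, -2.25 in SH-2251 resting, -1.94 in control restimulated and -2.92 in SH-2251 restimulated cells. The control resting array stood highest and the other 3 lay well below it. With SH-2251 the level was lower by 3.27-fold in resting cells, a log2 difference of -1.71 (technical SD 0.212), which left 30.6% of the signal. This was the decrease of rank 84 among 11874 genes measured on both resting arrays. In restimulated cells the difference was -0.98 (technical SD 0.227), rank 246 of 11812 genes, and just short of 2-fold at 1.97-fold. Restimulation lowered the level 2.64-fold in control and 1.59-fold in SH-2251 cells. Under normexp, another background correction whose fit was distorted on the SH-2251 resting array, the resting difference was -0.80 and no longer reached 2-fold, and without spots of uneven background it was -1.32. The order from high to low was control resting, control restimulated, SH-2251 resting, SH-2251 restimulated, and the closest neighbours, control restimulated and SH-2251 resting, lay 0.31 apart with a technical SD of 0.217.

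The second Cxcr2 probe was dim. It read -2.61, -4.25 and -3.76 in the first 3 conditions and -5.04 in SH-2251 restimulated cells, where it was not well above background. Its resting difference was -1.64 (technical SD 0.340), close to that of the brighter probe. In restimulated cells it gave only a bound, at least 1.97-fold lower with SH-2251.

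The genes that define neutrophils, the cells Cxcr2 is best known from, were near the floor of the arrays. S100a8, S100a9, Csf3r and Elane were not well above background on any array, Ly6g had no matched probe, and Mpo was dim, between -4.71 and -3.96. The summed signal of the 5 matched neutrophil genes was 0.0990 of the 75th percentile on the control resting array, where Cxcr2 was highest. It was 0.0813 on the SH-2251 resting and 0.0768 on the control restimulated array. On the SH-2251 restimulated array, where Cxcr2 was lowest, it was 0.0976. Signal of genes not well above background is part of each of these sums. Cxcr1, the closest relative of Cxcr2 and its neighbour on chromosome 1, was well above background on the control resting array alone, at -4.19. Its bound was at least 1.37-fold lower with SH-2251 in resting cells, less than its technical SD of 0.804 on the log2 scale.

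Cxcr3, the receptor of the interferon-induced chemokines, was lower with SH-2251 in both states. Its 1 probe (NM_009910) read 1.58 in control resting, 0.78 in SH-2251 resting, 1.36 in control restimulated and 0.33 in SH-2251 restimulated cells. Both control arrays stood above both SH-2251 arrays, and within each pair the resting array was the higher. The difference was -0.80 (technical SD 0.204) in resting and -1.04 (technical SD 0.204) in restimulated cells, where 48.8% of the signal remained and the decrease ranked 217 among 11812 genes. Median scaling put the restimulated value at -0.99, just short of 2-fold. Restimulation moved it less, by -0.22 in control and -0.45 in SH-2251 cells, and the first of these was hardly larger than its technical SD of 0.204.

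Genes of Th1 cells, in which Cxcr3 is typical, moved in part with it. Tbx21, the T-bet gene that drives Th1 cells and Cxcr3, had SH-2251 differences of -0.84 (resting) and -0.51 (restimulated). Ifng, the Th1 cytokine, read -0.58, -1.04, 5.34 and 3.70 in the order control resting, SH-2251 resting, control restimulated and SH-2251 restimulated, a difference of -0.46 in resting cells and 3.12-fold lower with SH-2251 in restimulated cells. Of the 4 Th1 markers 3 were below 0 with SH-2251 in both states, as were 46.3% of 11518 genes measured on all arrays. Il12rb2, a chain of the IL-12 receptor, was above 0 at 0.46 and 0.67. The summed signal of the 4 was 2.55, 1.76, 50.3 and 20.0 times the 75th percentile in that order. Tbx21 and Ifng were higher after restimulation with and without SH-2251, whereas Cxcr3 was not. Of the genes of CD8 and NK cells, Cd8a was the 1 measured on all 4 arrays. By the probe used it was higher with SH-2251 by 1.45 in the resting and by 0.97 in the restimulated state. Another Cd8a probe was higher by 1.15 in resting cells and by at least 0.97 in restimulated cells. The dimmest Cd8a probe gave bounds of 0.15 and 0.31, within their technical SDs of 0.548 and 0.468. Eomes gave bounds within its technical SD, Cd8b1 had no matched probe, and no array showed Ncr1 or Klrb1c well above background. Together the 4 matched genes summed to 0.121 in control resting, 0.312 in SH-2251 resting, 0.184 in control restimulated and 0.347 in SH-2251 restimulated cells, in multiples of the 75th percentile. The part of either cell type in the Cxcr3 difference was not tested.

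Cxcr4, the Cxcl12 receptor, was lower with SH-2251 by nearly the same amount in both states and lower again after restimulation. The probe used (NM_009911) read 0.56 in control resting, -0.29 in SH-2251 resting, -0.90 in control restimulated and -1.71 in SH-2251 restimulated cells. Each step down from 1 condition to the next in this order was 0.61 or more, with technical SDs of at most 0.208. The SH-2251 difference was -0.85 (technical SD 0.205) in resting and -0.81 (technical SD 0.208) in restimulated cells, and the difference between these was 0.035 with a technical SD of 0.292. Restimulation lowered the level 2.74-fold in control and 2.68-fold in SH-2251 cells, the decreases of rank 214 among 11855 genes and rank 208 among 11766.

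The other Cxcr4 probe read -0.07, -1.07, -1.42 and -2.43 in the same order of conditions. It gave differences with SH-2251 of -0.997 and -1.01, so Cxcr4 lay at 2-fold by this probe in restimulated cells (2.01-fold) and just under it in resting cells (1.996-fold). After restimulation it was lower by 2.55-fold in control and 2.57-fold in SH-2251 cells. Both probes therefore gave the same direction in all 4 comparisons, with the brighter one smaller for SH-2251. Hif1a, the hypoxia factor that acts on Cxcr4, differed by -0.64 and -0.038 in the resting and the restimulated state.

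Cxcr5, the follicle-homing receptor, was lower with SH-2251 in resting cells and near its control level in restimulated cells. Its 1 probe (NM_007551) read -0.47 in control resting, -1.18 in SH-2251 resting, -0.61 in control restimulated and -0.67 in SH-2251 restimulated cells. The SH-2251 resting array stood lowest and the other 3 lay close together, with neighbours 0.14 and 0.057 apart, within the technical SD. The difference was -0.71 (technical SD 0.207) in resting cells, 1.64-fold, and -0.057 (technical SD 0.206) in restimulated cells. Under normexp the resting value was -0.20, and -0.47 without spots of uneven background. Restimulation changed the level by -0.14 in control cells, within the technical SD, and by 0.51 (technical SD 0.207) in SH-2251 cells.

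Of the follicular helper genes, Bcl6, the factor that defines these cells, read -2.23, -1.67, 0.57 and 0.36 in the order control resting, SH-2251 resting, control restimulated and SH-2251 restimulated, so it was higher with SH-2251 by 0.56 in the resting cells, where Cxcr5 was lower. Pdcd1, the inhibitory receptor PD-1, was 2.15-fold lower in resting cells and 1.77-fold lower in restimulated cells. Il21, their cytokine, was at least 3.11-fold lower in resting and 4.74-fold lower in restimulated cells. Icos, a costimulatory receptor, was higher by 0.43 in resting and 2.98-fold higher in restimulated cells, and Sh2d1a was lower by 0.59 and 0.40. Ascl2, a factor that acts on Cxcr5, differed by -0.26 in resting cells, less than its technical SD, and by -0.53 in restimulated cells. Summed over the 5 follicular helper markers, the signal was 116 in control resting, 146 in SH-2251 resting, 93.2 in control restimulated and 231 in SH-2251 restimulated cells. Icos alone made up 79.2% to 95.0% of it. In restimulated cells the 4 other markers were all lower with SH-2251, as were 57.9% of all genes.

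B cells also carry Cxcr5. Of the B cell genes, no array showed Pax5, the factor that defines these cells, well above background, and Ms4a1, the CD20 gene, read -1.23, -0.48, -1.29 and -0.08 in the same order. Ms4a1 was higher with SH-2251 by 0.74 in resting cells, where Cxcr5 was lower, and by 2.31-fold in restimulated cells, where Cxcr5 was near its control level. Cd79a and Cd79b, the signalling chains of the B cell receptor, differed by -0.29 and 0.16 in the resting state and by -0.15 and 0.62 in the restimulated state. Cd22, a receptor that restrains B cell signalling, was higher by 0.20, within its technical SD of 0.208, and by 0.54. Over these 5 B cell markers the summed signal was 4.07 in control resting, 4.79 in SH-2251 resting, 3.11 in control restimulated and 5.04 in SH-2251 restimulated cells. The part of B cells in the Cxcr5 levels was not tested.

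Cxcr6, the Cxcl16 receptor, was the receptor whose SH-2251 difference changed sign between the states. Its 1 probe (NM_030712) read 3.53 in control resting, 2.49 in SH-2251 resting, 4.54 in control restimulated and 5.74 in SH-2251 restimulated cells. The SH-2251 arrays were thus the lowest and the highest of the 4, with the control arrays between them, and no neighbours in this order were closer than 1.02. With SH-2251 the level was lower by 2.05-fold in resting cells, a log2 difference of -1.04 (technical SD 0.204), and higher by 2.29-fold in restimulated cells, 1.20 (technical SD 0.204). These were the decrease of rank 258 among 11874 genes and the increase of rank 168 among 11812. Median scaling moved the resting value to -0.98, just short of 2-fold.

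Restimulation raised Cxcr6 2.02-fold in control cells and 9.51-fold in SH-2251 cells, the increases of rank 761 among 11855 genes and rank 57 among 11766. The SH-2251 difference was greater in restimulated than in resting cells by 2.23 on the log2 scale, 4.70-fold, with a technical SD of 0.289. Of the 11518 genes measured on all 4 arrays this was rank 8 from the top, and 0.0955% of them had a value as far from 0 in either direction. The same quantity was 0.73 for Cxcr2, 0.65 for Cxcr5, 0.035 for Cxcr4 and -0.23 for Cxcr3, where the median of all genes was 0.012. The values for Cxcr2 and Cxcr5 were 2.35 and 2.23 times their technical SD, and those for Cxcr3 and Cxcr4 lay within it. Under normexp, with its distorted fit, Cxcr2 was at 0.14 and Cxcr5 at 0.23. Without spots of uneven background they were at 0.66 and 0.51. These differences between the states rest on 4 single arrays and were not tested.

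**Figure D3:**
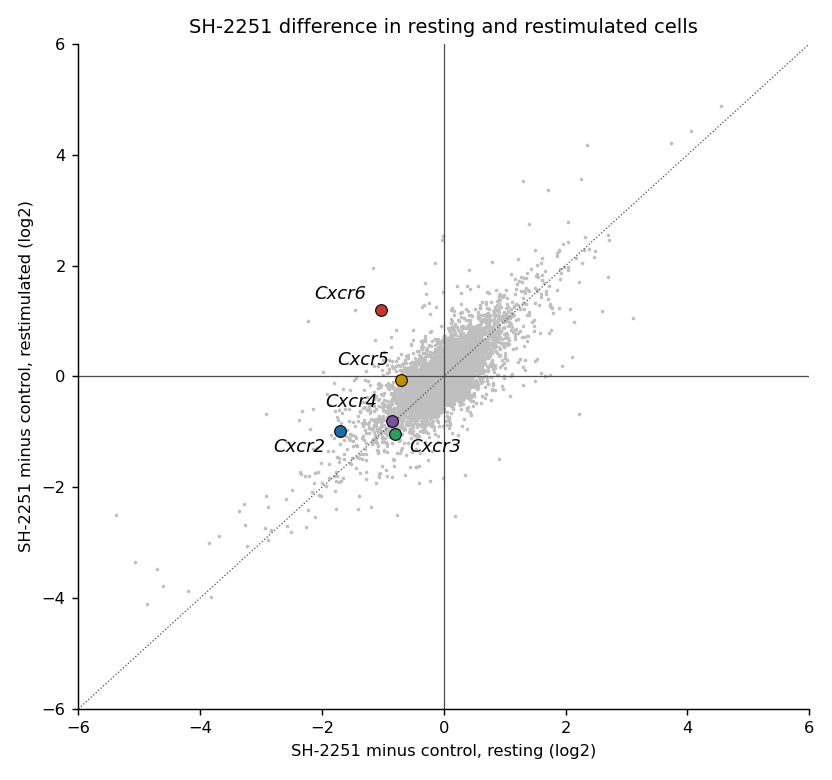
The SH-2251 difference (log2) in resting cells, on the horizontal axis, against that in restimulated cells, for 11518 genes measured on all 4 arrays (grey) with the 5 receptor genes in colour; on the dotted line both are equal. Cxcr3 and Cxcr4 lie near the line, Cxcr2 and Cxcr5 above it, and Cxcr6 in the upper left part at -1.04 and 1.20.

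Among the profiles of the 5 receptor genes over the 4 arrays, that of Cxcr6 stood furthest from the rest. After each profile was centred on its own mean, the root mean square distance was smallest between Cxcr2 and Cxcr4, at 0.37. It was largest between Cxcr4 and Cxcr6, at 1.92. Distances to Cxcr6 were 1.08 or more, and those among the other receptors at most 0.86. Among the 11517 other genes measured on all 4 arrays, those nearest to Cxcr2 were Bcl2l14 (0.064), a member of the Bcl2 family, Sdc3 (0.11), a syndecan of the cell surface, and Sema6b (0.14), a semaphorin. Bcl2l14 differed by -1.63 and -1.14 with SH-2251 in resting and restimulated cells. Cxcr4 was nearest to Akap12 (0.053), a scaffold of protein kinase A, Thada (0.063) and Cpt1a (0.076), which brings fatty acids into mitochondria. Akap12 was lower by 0.75 and 0.71 in the 2 states.

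Cxcr3 was nearest to Trim16 (0.041), Mras (0.052), a small GTPase, and Prss53 (0.053), and 138 genes lay within 0.2 of it. Cxcr5 had 1026 genes within 0.2, led by Hhex (0.040), a homeobox factor, Cavin1 (0.046), a coat protein of caveolae, and Csf1r (0.050), the receptor of macrophage growth factor. That number is set by the small range of Cxcr5 over the 4 arrays, 0.71, which many genes share. Within 0.2 of Cxcr2 there were 13 genes, within 0.2 of Cxcr4 48, and within 0.2 of Cxcr6 0. The genes nearest to Cxcr6 were Calca (0.28), which encodes calcitonin and its related peptide, Tnfrsf12a (0.32), the TWEAK receptor, and Ttc39c (0.37). Calca was lower by 0.32 in resting and higher by 1.30 in restimulated cells with SH-2251. These distances describe 4 arrays.

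**Figure D4:**
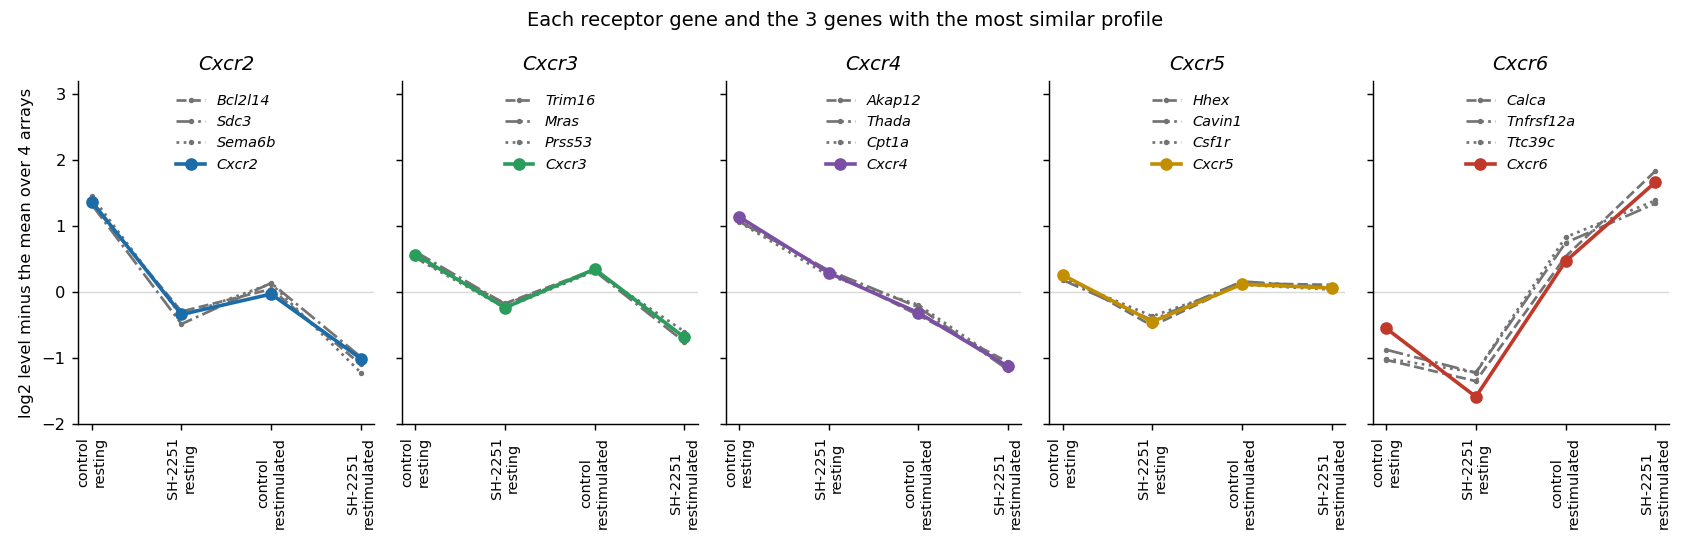
The log2 level of each receptor gene in the 4 conditions, minus its mean over them (coloured line), with the 3 genes of the smallest root mean square distance to it (grey lines). The grey lines run on top of the coloured one for Cxcr3, Cxcr4 and Cxcr5, and are spread most around Cxcr6, whose nearest gene is at a distance of 0.28.

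Among the chemokines these receptors read, few were measurable. Of 13 CXC chemokine genes 12 had a matched probe (Cxcl11 had none), and 4 were well above background on at least 1 restimulated array and 2 on at least 1 resting array. Cxcl3, a ligand of Cxcr2, was not well above background on either resting array and read 0.70 in control restimulated and -1.99 in SH-2251 restimulated cells, 6.46-fold lower with SH-2251 (log2 -2.69, technical SD 0.209). Cxcl2, another Cxcr2 ligand, was likewise measured on the restimulated arrays alone, at -2.41 in control and -3.14 in SH-2251 cells, which differ by -0.73. Cxcl10, a ligand of Cxcr3, read -3.84 in control resting, -1.75 in control restimulated and -3.29 in SH-2251 restimulated cells, and was not well above background in SH-2251 resting cells. It was 2.92-fold lower with SH-2251 in restimulated cells, and in resting cells the bound was at least 1.76-fold lower, within its technical SD.

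Cxcl16, the ligand of Cxcr6, was dim on all 4 arrays and its difference with SH-2251 went from below to above 0 as that of Cxcr6 did. It read -3.52, -3.87, -3.67 and -3.14 in the order control resting, SH-2251 resting, control restimulated and SH-2251 restimulated. The differences were -0.35 (technical SD 0.321) in resting and 0.53 (technical SD 0.291) in restimulated cells. Its second probe read -2.67, -5.23, -3.97 and -3.004, was not well above background in SH-2251 resting cells, and gave at least 3.95-fold lower there and 1.95-fold higher in restimulated cells. Cxcl12 and Cxcl13, the ligands of Cxcr4 and Cxcr5, were not well above background on any array, nor were Cxcl1, Cxcl5, Cxcl9, Cxcl14, Cxcl15 and Ppbp. Ackr3 and Ackr1, the atypical receptors that bind CXC chemokines without G protein signalling, were not well above background on any array either.

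Downstream of the receptors, all 15 genes of G protein and migration signalling were measured on every array. None reached 2-fold with SH-2251, which is near the share over all genes (resting 2.9% lower and 2.22% higher, restimulated 2.78% and 2.65%) and says nothing particular of these 15. Their median differences were -0.083 (resting) and -0.041 (restimulated), and 7 and 8 of them lay within the technical SD. The lowest was Ptk2b, a kinase of the focal adhesion family, at -0.53 in resting cells, and the highest Pik3r5, a subunit of the kinase that G proteins activate, at 0.40 in restimulated cells. Gnai2, the main inhibitory G protein of lymphocytes, differed by -0.29 and -0.089. Restimulation raised Ptk2b 2.11-fold in SH-2251 cells, the 1 change past 2-fold among the 15. Of all genes, 7.09% were higher and 6.98% lower by 2-fold or more in that comparison. This count is near those shares and says nothing particular of the 15.

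Of 6 genes that switch receptors off, 5 had a matched probe (Arrb2 had none). As with the 15 above, 0 reached 2-fold with SH-2251, near those shares over all genes. Their median differences were -0.17 and -0.12. Arrb1, β-arrestin 1, read 5.08, 4.40, 2.80 and 2.33 in the order control resting, SH-2251 resting, control restimulated and SH-2251 restimulated. Its SH-2251 differences were -0.68 and -0.48, and restimulation lowered it 4.85-fold in control and 4.22-fold in SH-2251 cells. The order of its 4 levels was that of Cxcr4, an order also held by Grk6, and by Dars and Mcm6 beside Cxcr4. Grk6, a kinase that marks receptors for arrestin, was lowered 2.09-fold and 2.10-fold by restimulation and differed by -0.29 with SH-2251 in both states. Grk3 had probes that disagreed: the one used differed by -0.17 in resting cells, and another was at least 3.79-fold higher with SH-2251.

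Of 7 transcription factors tied to these receptor genes, 1, Gfi1, reached 2-fold lower in both states, against 2.9% and 2.78% of all genes. It read 3.38, -2.01, 4.24 and 1.75 in the order control resting, SH-2251 resting, control restimulated and SH-2251 restimulated, differences of -5.39 in resting and -2.49 in restimulated cells. No binding of Gfi1 was measured here. The other 6 ran from -0.84 to 0.56 in resting cells and from -0.53 to 0.22 in restimulated ones. Foxo1, which keeps T cells in a resting homing state, differed by -0.063 and 0.22. Klf2, which holds homing receptors on, had probes that disagreed on restimulation: the one used changed by 0.26 in control cells, and the other was 4.96-fold lower. Neither Klf2 probe reached 2-fold with SH-2251.

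**Figure D5:**
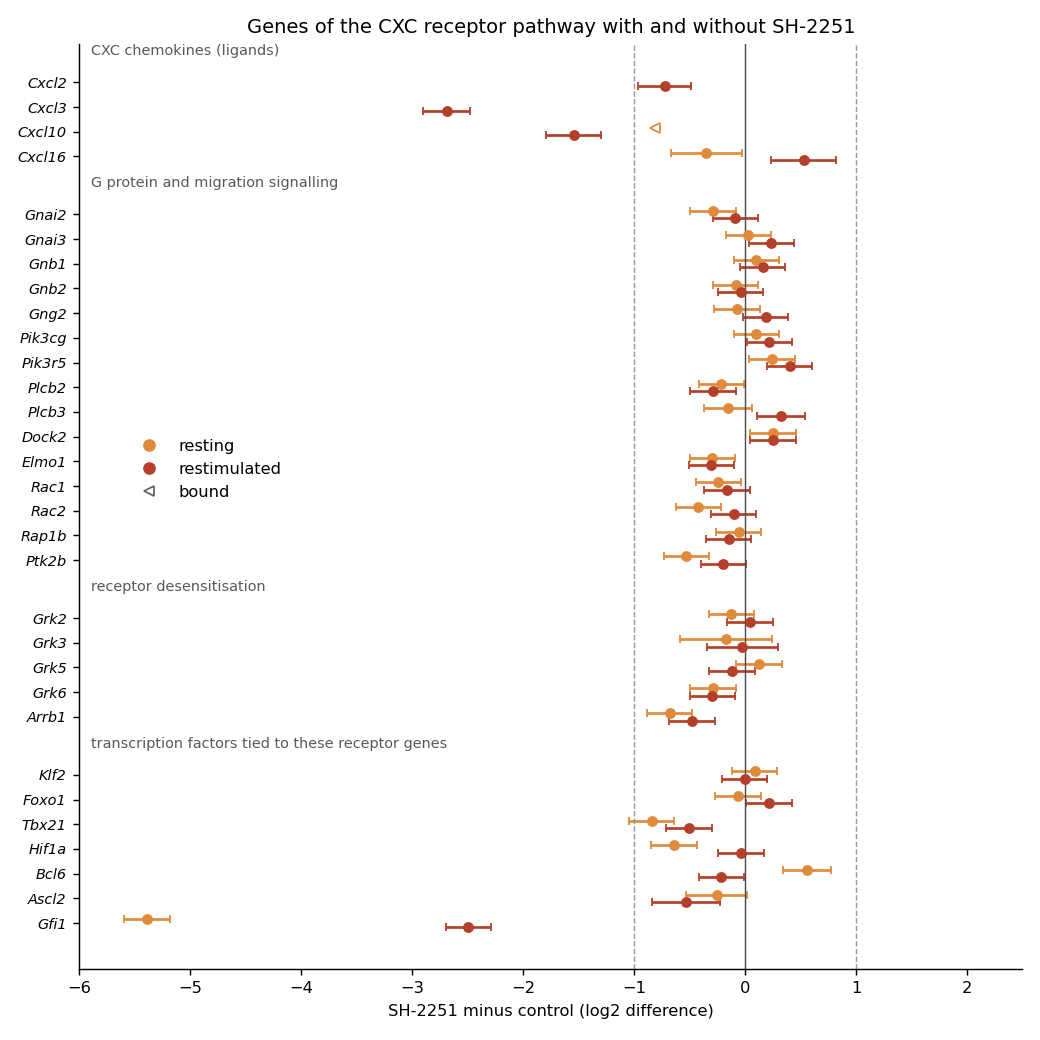
The log2 difference with SH-2251 in resting (orange) and restimulated (red) cells of the ligand, signalling, desensitisation and transcription factor genes that were measurable, with bars for the technical SD; open triangles are bounds, drawn without bars, and dashed lines mark 2-fold. Cxcl3, Cxcl10 and Gfi1 are the genes beyond the lower line, and no gene lies beyond the upper one.

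The genes beside the receptors on the chromosomes were compared with them, by their order in GRCm38.p6. On chromosome 1, Tns1, before Cxcr2, had differences of -0.65 (resting) and -0.96 (restimulated), and Arpc2, beyond Cxcr1 on the other side, of -0.18 and -0.067. Dars and Mcm6, before Cxcr4, differed by -0.34 and -0.55 in resting cells and by -0.34 and -0.58 in restimulated cells, less than Cxcr4 but on the same side of 0. On chromosome X, Ogt, near Cxcr3, was higher by 0.28 and 0.30. On chromosome 9, Bcl9l, which overlaps Cxcr5, differed by -0.11 and 0.15, within its technical SD. Fyco1, which overlaps Cxcr6, differed by -0.0048 and 0.23, and the chemokine receptor genes Ccr9 and Xcr1 on either side of Cxcr6 by -0.43 and -0.22 in resting and -0.037 and -0.37 in restimulated cells. Lztfl1, also near Cxcr6, differed by 0.013 and 0.50.

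Other cell types were also checked. Of 5 genes of monocytes and macrophages, no array showed Itgam or Lyz2 well above background. The other 3, Csf1r, Cd14 and Adgre1, had differences from -0.58 to 0.089 with SH-2251. The probe used for Adgre1 read 1.30 in control resting, 1.20 in SH-2251 resting, 1.42 in control restimulated and 1.51 in SH-2251 restimulated cells. Its other probe read -4.87, -5.08, -4.65 and -4.67 in that order, too dim on every array to count as measured, so the Adgre1 probes disagreed. The summed signal of the 5 genes was between 2.44 and 2.99 on the 4 arrays, and Adgre1 alone made up 93.7% to 95.1% of it. That of the 5 T cell markers summed to between 145 and 160, and their differences with SH-2251 ran from -0.39 to -0.021 in resting cells and from -0.58 to 0.11 in restimulated ones. Of 7 Th2 markers, Il5 and Il13 were at least 2-fold lower in resting cells with SH-2251, against 2.9% of all genes. In restimulated cells Il5 was at least 2-fold lower, against 2.78% of all genes. Gata3 differed by -0.17 and -0.033 in the resting and the restimulated state. The summed signal of the 7 was 75.2, 67.2, 453 and 341 in the order control resting, SH-2251 resting, control restimulated and SH-2251 restimulated. The part of any of these cells in the receptor levels was not tested.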

How the data were processed

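Gene expression was measured with 1 single-dye (Cy3) Agilent whole mouse genome array per condition, grouped by the sample titles. The authors deposited scanner intensities from Feature Extraction 10.7.3.1, already corrected for background, and a table of log2 values that they normalized with the Subio Platform. Over probes, 99.6% to 99.7% of these log2 values lay within 0.01 of the values computed here.

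From the intensities, control and outlier spots (77 to 106 per array) were left out, log2 was taken and each array's 75th percentile subtracted. Of 41174 probes 27198 (66.1%) were named through RefSeq accessions and a table for GRCm38.p6, and promoters come from RefSeq on that build. The array design was made on mm9, so coordinates are given for promoters only. The brightest probe stood for a gene. A gene was compared if well above background on at least 1 array of the pair; with 1 only, the dim side was raised to the lowest signal well above background, which gives a bound. No saturated spot was found. No p-value, SD or correlation across conditions was computed.

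The receptors and the gene lists were chosen with earlier results of these data known. The genes named are the receptors with all probes, list members past 2-fold with SH-2251 or that define a cell type a receptor is known from, and for each receptor the 3 genes with the nearest centred profile. Other list members and the chromosomal neighbours are named as examples, chosen after their values were seen. 1 marker gene of the B cell list is not reported here. Alternatives were the authors' values, median and quantile scaling, normexp with an offset of 50 intensity units (R 4.3.3, limma 3.58.1) on median spot signals, outlier spots, the probe rule, the filter, and fold thresholds of 1.5 and 3. The procedure was tested on simulated data. Python 3.11.15, numpy 2.4.6, pandas 2.3.3 and matplotlib 3.10.9 were used.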

Additional observations from a re-analysis of the deposited data

Results flagged for a closer look

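Cxcr6 was lower with SH-2251 in resting cells (-1.04) and higher in restimulated cells (1.20), a difference between the states of 2.23 on the log2 scale. Cxcl16, its ligand, went from -0.35 to 0.53, a difference of 0.877, at levels close to background. Bcl6 went the other way, from 0.56 to -0.21, a difference of -0.774. The response to restimulation also turned sign for a pair of marker genes: Ptgdr2, a prostaglandin D2 receptor of Th2 cells, changed by -0.36 in control and 0.35 in SH-2251 cells (a difference of 0.713), and Icos by -0.46 and 0.69 (a difference of 1.15). Each of these values lay further from 0 than its technical SD in both states or both treatments. None of the differences was tested, since each condition has 1 array.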

How the results depend on the processing

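Of 29 results, none reversed under 9 alternatives, and 221 of 225 recomputed differences kept their sign; the 4 others, all under normexp, were the restimulated Cxcr5 difference and the difference between the states of Cxcr4. The authors' values, outlier spots, a filter on both arrays and no filter left every difference within its technical SD and every count as it was. The mean of all probes kept every difference within its technical SD but moved Cxcr2 in restimulated cells to -1.13, which raised the number of receptors past 2-fold there from 2 to 3. Under normexp the resting differences with SH-2251 were -0.80 for Cxcr2, -0.20 for Cxcr5 and -1.28 for Cxcr6, and without spots of uneven background -1.32 for Cxcr2 and -0.47 for Cxcr5. The restimulated Cxcr2 difference was -0.66 under either form. After restimulation, either form gave -1.06 for Cxcr2 and -1.14 for Cxcr4 in control cells. In SH-2251 cells normexp gave -0.92 for Cxcr2, -1.19 for Cxcr4 and 0.14 for Cxcr5, and -0.40 for Cxcr2 and -1.15 for Cxcr4 without uneven spots. The difference between the states was 0.14 for Cxcr2 and 0.23 for Cxcr5 under normexp, and 0.66 and 0.51 without spots of uneven background. On the SH-2251 resting array there were 12 uneven spots, and 4 spots lay below local background. The background mean fitted to that array was -151.7 against 7.36 to 8.23 on the others (7.42 without the uneven spots).

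The number of receptors past 2-fold with SH-2251 in resting cells was 1 under median scaling and quantile normalization, with Cxcr6 at -0.98 and -0.99, and 1 under normexp. In restimulated cells it was 1 under median scaling and either form of normexp, with Cxcr3 at -0.99 and -0.96. For restimulation of control cells it fell from 3 to 2 under median scaling and quantile normalization, with Cxcr6 at 0.99 and 0.92. At 1.5-fold, 5 receptors were past the threshold in resting and 4 in restimulated cells. At 3-fold it was 1 in resting, 0 in restimulated, 0 for restimulation of control cells and 1 for that of SH-2251 cells. Shares of all genes past 1.5-fold and 3-fold are not given here, so these counts are not set against all genes. The Cxcr6 difference ran from -1.28 to -0.98 in resting cells and from 1.14 to 1.24 in restimulated ones, and that between the states between 2.19 and 2.42. The restimulated Cxcr5 difference lay between -0.079 and 0.035 and has no direction.

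No paired analysis was possible because each condition has 1 array, and for the same reason leaving out an array gives no value. Signal over background limits Cxcr2: its brighter probe lay 3.32 to 9.89 times above the local background and its second one 2.10 to 3.28 times, whereas Cxcr6 lay 78.4 times or more above it. The differences describe these 4 arrays.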
